A study of Homo sapiens with 6 samples.

Results

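The 42 genes described here encode the machinery that copies human nuclear DNA, from the proteins that mark and license origins to the polymerases, the clamp and its loader, the enzymes that supply nucleotides, and the E2F factors and E cyclins that time their use. They were taken as a fixed list of symbols. The rule uses no measured value, but the list was chosen with earlier results of these data known. Each gene was found in the table after transcripts had been summed per gene. They are 42 of 58478 genes, and all 42 passed the filter on low counts.

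RNA was read from Huh7, a cell line established from a human hepatocellular carcinoma and labelled wild type. Normoxia cells (3 libraries) stayed at 21% oxygen in the usual incubator, and hypoxia cells (3 libraries) spent 24 h in a chamber at 1% oxygen. All 6 cultures shared the same medium with serum and antibiotics, and no other agent or allele is labelled. Replicates are labelled biological, but how the cultures were kept apart is not described, and p-values reflect only the scatter among these 6 libraries. Libraries are named by the table's own column numbers, C1 to C3 for normoxia and C4 to C6 for hypoxia, which do not map to the labels' replicate numbers.

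As background, replication is prepared in G1 phase, when the origin recognition complex together with CDC6 and CDT1 loads rings of MCM2 to MCM7 onto DNA. At the start of S phase the CDC7-DBF4 kinase and cyclin-dependent kinases let CDC45 and the GINS complex join each ring, which then becomes the active helicase. Polymerase alpha with primase lays primers, polymerases epsilon and delta extend them on the sliding clamp PCNA, and FEN1 and ligase I join the lagging strand fragments. Most of these genes are transcribed at the border of G1 and S phase under E2F control, so their mRNAs are widely read as markers of proliferating cells. Oxygen-deprived cells are known to slow or delay entry into S phase.

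Expected counts summed to 37621426 to 40794783 per library, and no 2 libraries of a condition agreed within sampling noise. The hypoxia targets fixed as a check rose in all hypoxia libraries, for example carbonic anhydrase CA9 with 56.2 ± 1.51 CPM in normoxia and 454 ± 20.5 CPM in hypoxia (CPM, counts scaled to library size; mean ± SD, n = 3). NDRG1 had 379 ± 7.01 CPM in normoxia and 7639.6 ± 203 CPM in hypoxia, with VEGFA up 7.68-fold and the glucose transporter SLC2A1 up 7.47-fold. The label of a hepatocyte-derived line was not borne out by most of its markers: 7 of the 10 markers stayed below 1 CPM throughout, and 4 of these (AFP, APOA1, TTR and GPC3) had 0 counts in all 6 libraries. Only TF, SERPINA1 and HNF4A passed the low-count filter, and the 10 genes together summed to 8.87 to 10.7 CPM in normoxia and 20.8 to 21.6 CPM in hypoxia. The summed levels of other cell types' markers were 70.4 to 72.8 and 52.4 to 61.3 CPM for 4 fibroblast genes, nearly all COL1A1 with COL1A2 at 0, 11.3 to 12.3 and 4.97 to 5.79 CPM for 3 endothelial genes, and 6.02 to 6.34 and 42.1 to 51.1 CPM for 3 leukocyte genes, nearly all CD68, with PTPRC at 0. The mitochondrial genome took 6.72% to 7.02% of gene counts in normoxia and 2.37% to 2.48% in hypoxia. The part of these differences in the results on replication genes was not tested.

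Most replication genes were lower in hypoxia by modest amounts, while a minority was higher. With edgeR's quasi-likelihood test (two-sided, Benjamini-Hochberg adjusted over 17396 genes, threshold 0.05), 28 of the 42 fell, 8 rose and 6 did not pass. Among all genes tested, 36.3% fell and 36.5% rose, and among the 13140 protein-coding genes tested 43.0% fell and 34.7% rose, so the fallen share of the list (66.7%) lay above both backgrounds and the risen share (19.05%) below both. The list's median log2 change was -0.36 against 0.025 over all genes tested. Its groups did not overlap for 38 genes, in a data set where that held for 75.7% of genes. Only 6 genes fell at least 2-fold (MCM3, MCM6, GINS1, POLE2, PCNA and RFC3) and only TK1 rose at least 2-fold. Over all genes tested, 11.4% fell and 17.5% rose that far, so the count of large falls was close to the background. In RNA from whole cultures, fewer cells in S phase and less of each mRNA per cell cannot be told apart. These counts rest on scaling by TMM, a method that takes most genes as unchanged. In limma on log2(TPM + 0.5), a scale on which the median change of all genes was -0.22, 4 of the 42 rose and 34 fell, beside 4126 risen and 8076 fallen genes overall.

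**Figure D1:**
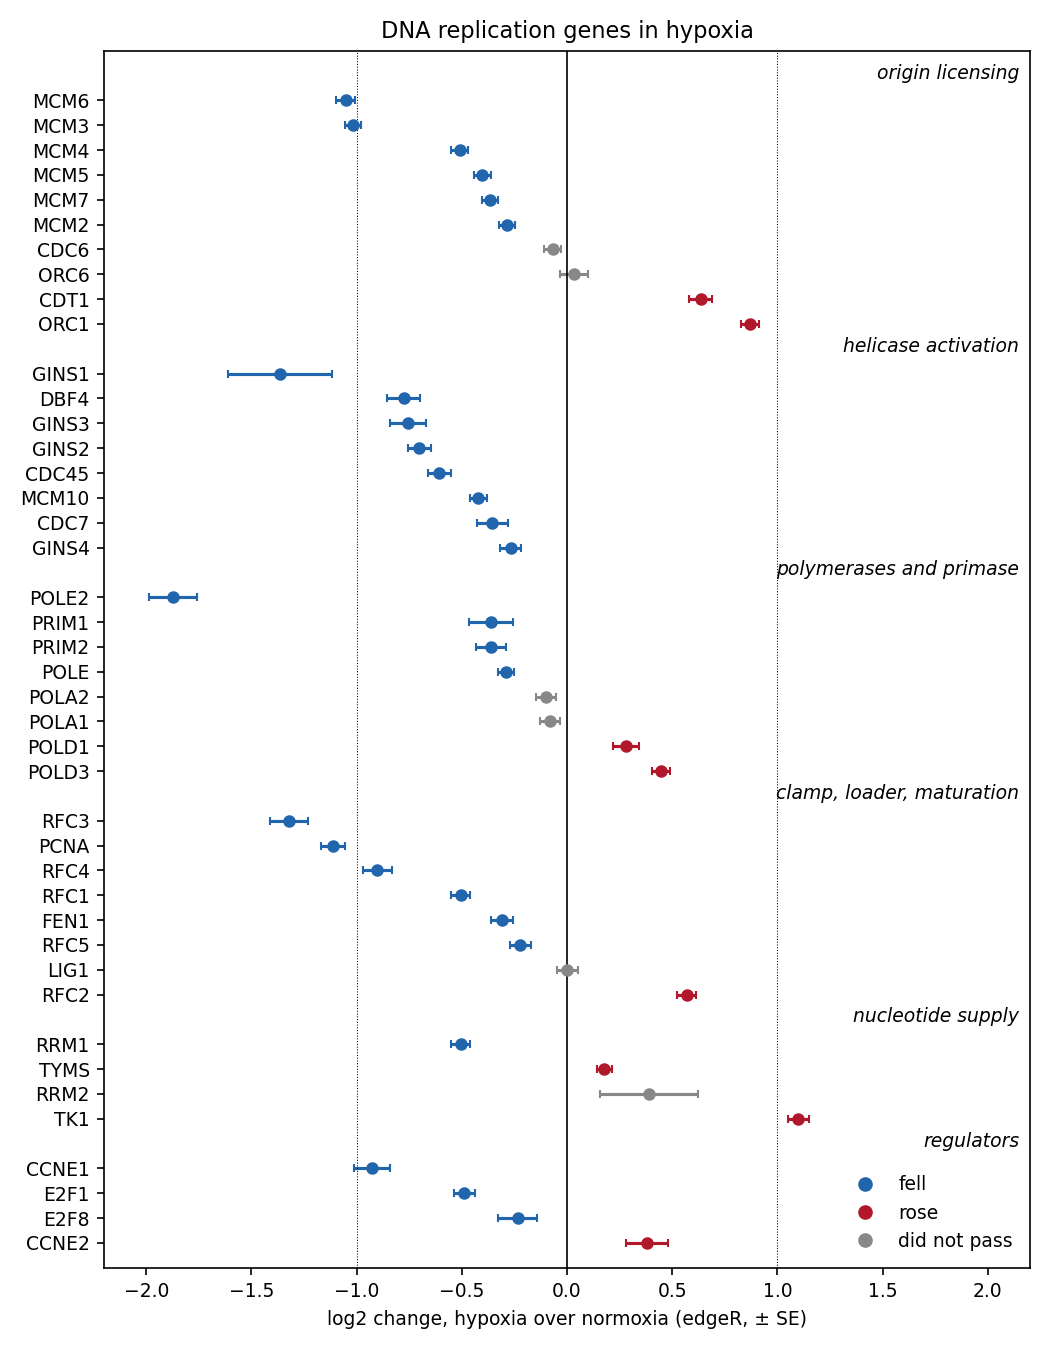
Log2 change (x axis, hypoxia over normoxia, points with SE bars) of the 42 genes by role, coloured by whether edgeR called them fallen (28), risen (8) or not passed (6). All 8 helicase activation genes lie left of 0, the dotted lines mark 2-fold changes, and the rises of TYMS (log2 0.18) and POLD1 (0.28) turned negative on the TPM scale.

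The genes with the largest falls hold the letters of short E2F motifs near their starts, which is why these regions are shown. Apart from CDT1, the motif printed was chosen by the direction of change, so the printed windows do not compare outcomes. Of the 42 genes, 36 were matched by symbol to RefSeq promoters on GRCh38.p14, each spanning 250 bases before to 50 bases after a start. The E2F octamers searched on both strands were TTTGGCGC, TTTCCCGC, TTTGCCGC and TTTCGCGC, of which TTTGGCGC and TTTCGCGC can overlap on opposite strands. At least 1 octamer was found for 19 of the 36 genes (52.8%), against 3.31% of all 35116 promoters and 6.62% of 10472 protein-coding genes tested. Each of the 6 genes that fell at least 2-fold held 1 or more. The octamers are in capitals, on the gene's own strand 5′ to 3′.

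In MCM3 the printed bases, chr6:52284893-52284952 on the minus strand of GRCh38.p14, hold TTTCCCGC, its first base at position -174 from the start.
MCM3: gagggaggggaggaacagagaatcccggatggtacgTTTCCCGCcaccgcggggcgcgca
In MCM6, chr2:135876506-135876611 on the minus strand holds 2 copies of TTTGGCGC, each overlapped by TTTCGCGC on the other strand.
MCM6: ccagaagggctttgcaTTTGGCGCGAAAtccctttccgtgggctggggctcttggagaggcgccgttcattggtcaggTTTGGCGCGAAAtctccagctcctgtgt
In GINS1 (chr20:25407667-25407696, plus strand) and POLE2 (chr14:49688201-49688230, minus strand) the reverse complement of TTTGGCGC has its first base at +6 and -5 from the start, so that it follows the start in GINS1 and spans it in POLE2.
GINS1: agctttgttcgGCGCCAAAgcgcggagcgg
POLE2: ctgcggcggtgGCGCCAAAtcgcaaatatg
In PCNA (chr20:5126658-5126717, minus strand) and RFC3 (chr13:33818083-33818112, plus strand) the reverse complement of TTTCCCGC lies less than 60 bases before the start.
PCNA: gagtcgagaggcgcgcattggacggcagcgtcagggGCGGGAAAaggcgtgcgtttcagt
RFC3: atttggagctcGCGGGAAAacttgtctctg
CDT1 (chr16:88803743-88803772, plus strand), which rose, has the same reverse complement at a like distance.
CDT1: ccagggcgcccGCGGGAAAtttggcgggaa
TK1, the gene that rose most, had none of the 4 octamers in its window and held ACGTG, the core of the element that hypoxia-inducible factors bind; its reverse complement is in capitals (chr17:78187227-78187256, minus strand).
TK1: ccccgatcagcCACGTccatcgccctgatt

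By outcome, an E2F octamer was found for 13 of 24 matched genes that fell, 2 of 6 that rose (CDT1 and TYMS) and 4 of 6 that did not pass (CDC6, POLA1, POLA2 and LIG1). The motif was thus present in each outcome. ACGTG was found for 11 of the 36 genes (30.6%), against 21.4% of all promoters and 31.99% of protein-coding genes tested, and in 7 of the 24 that fell and 2 of the 6 that rose. The CCAAT box (CCAAT, both strands), bound by NF-Y, was found for 20 (55.6%) against 34.6% and 43.5%. The cell cycle homology region (TTTGAA, both strands), typical of genes expressed in G2 and mitosis, was found for DBF4 and RRM1 only (5.56%), against 15.2% and 14.1%. These are matches of letters in 1 window, and binding was not measured.

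Of the 10 origin licensing genes, all 6 ring subunits fell, ORC1 and CDT1 rose, and ORC6 and CDC6 did not pass (median log2 change -0.33). Gene positions are those of GENCODE 29 on GRCh38. ORC1 (ENSG00000085840.12, chr1:52372829-52404459, minus strand), the largest subunit of the complex that marks origins, measured 50.8, 51.4 and 52.8 CPM in normoxia and 95.6, 93.2 and 94.6 CPM in hypoxia. Its groups lay far apart and the rise was 1.83-fold (log2 change 0.87, SE 0.042, edgeR adjusted p = 1.46e-08; SE is the standard error of the log2 change). CDT1 (ENSG00000167513.8, chr16:88803213-88809258, plus strand), which brings the MCM ring to origins, measured 72.99, 77.5 and 74.3 CPM in normoxia and 118, 123 and 108 CPM in hypoxia, a rise of 1.55-fold (log2 change 0.64, SE 0.054, edgeR adjusted p = 1.55e-06). Every hypoxia library exceeded every normoxia library for both genes, and both were also called higher in limma on log2(TPM + 0.5), at 0.54 and 0.30. CDC6, the ATPase that works with CDT1, measured 133, 132 and 129 CPM in normoxia and 126, 121 and 128 CPM in hypoxia. Its groups did not overlap, yet the difference was small and did not pass (log2 change -0.067, SE 0.041, edgeR adjusted p = 0.160), while with library totals in place of TMM it was called lower (log2 change -0.22). CDC6 was also called lower in limma on log2(TPM + 0.5), at -0.43, and on each FPKM scale, at -0.27 to -0.26. ORC6, the smallest subunit of the complex, measured 199.9, 226 and 217 CPM in normoxia and 241, 216 and 200.3 CPM in hypoxia, with groups that overlapped (log2 change 0.033, SE 0.068, edgeR adjusted p = 0.678).

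Within the MCM2 to MCM7 ring, MCM3 and MCM6 had the largest log2 changes (-1.02 and -1.05), and the other 4 subunits lay between -0.51 and -0.29. MCM3 (ENSG00000112118.18, chr6:52264009-52284881, minus strand) measured 269.7, 264 and 264 CPM in normoxia and 133, 134 and 128 CPM in hypoxia, 2.02-fold lower (log2 change -1.02, SE 0.039, edgeR adjusted p = 2.51e-09). MCM6 (ENSG00000076003.4, chr2:135839626-135876426, minus strand) measured 129.8, 133 and 139 CPM in normoxia and 64.7, 62.4 and 66.8 CPM in hypoxia, 2.07-fold lower (log2 change -1.05, SE 0.046, edgeR adjusted p = 7.97e-09). The libraries of each group were tight beside the gap between groups. MCM4 measured 197, 2e+02 and 206 CPM in normoxia and 141, 137 and 145 CPM in hypoxia (log2 change -0.51, SE 0.041, edgeR adjusted p = 9.19e-07). MCM5 measured 150.3, 155 and 151 CPM in normoxia and 113, 119.8 and 113 CPM in hypoxia (log2 change -0.40, SE 0.042, edgeR adjusted p = 7.53e-06). For MCM4 and MCM5 alike, the 3 hypoxia libraries lay below the 3 normoxia libraries. MCM7 measured 265, 275 and 266 CPM in normoxia and 207, 213 and 205 CPM in hypoxia (log2 change -0.37, SE 0.038, edgeR adjusted p = 7.61e-06), and its exons overlap AP4M1 on the opposite strand. MCM2 changed least, with 212, 214 and 207 CPM in normoxia and 172, 178 and 169 CPM in hypoxia (log2 change -0.29, SE 0.039, edgeR adjusted p = 5.79e-05). No normoxia library of any ring subunit came down to a hypoxia library.

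**Figure D2:**
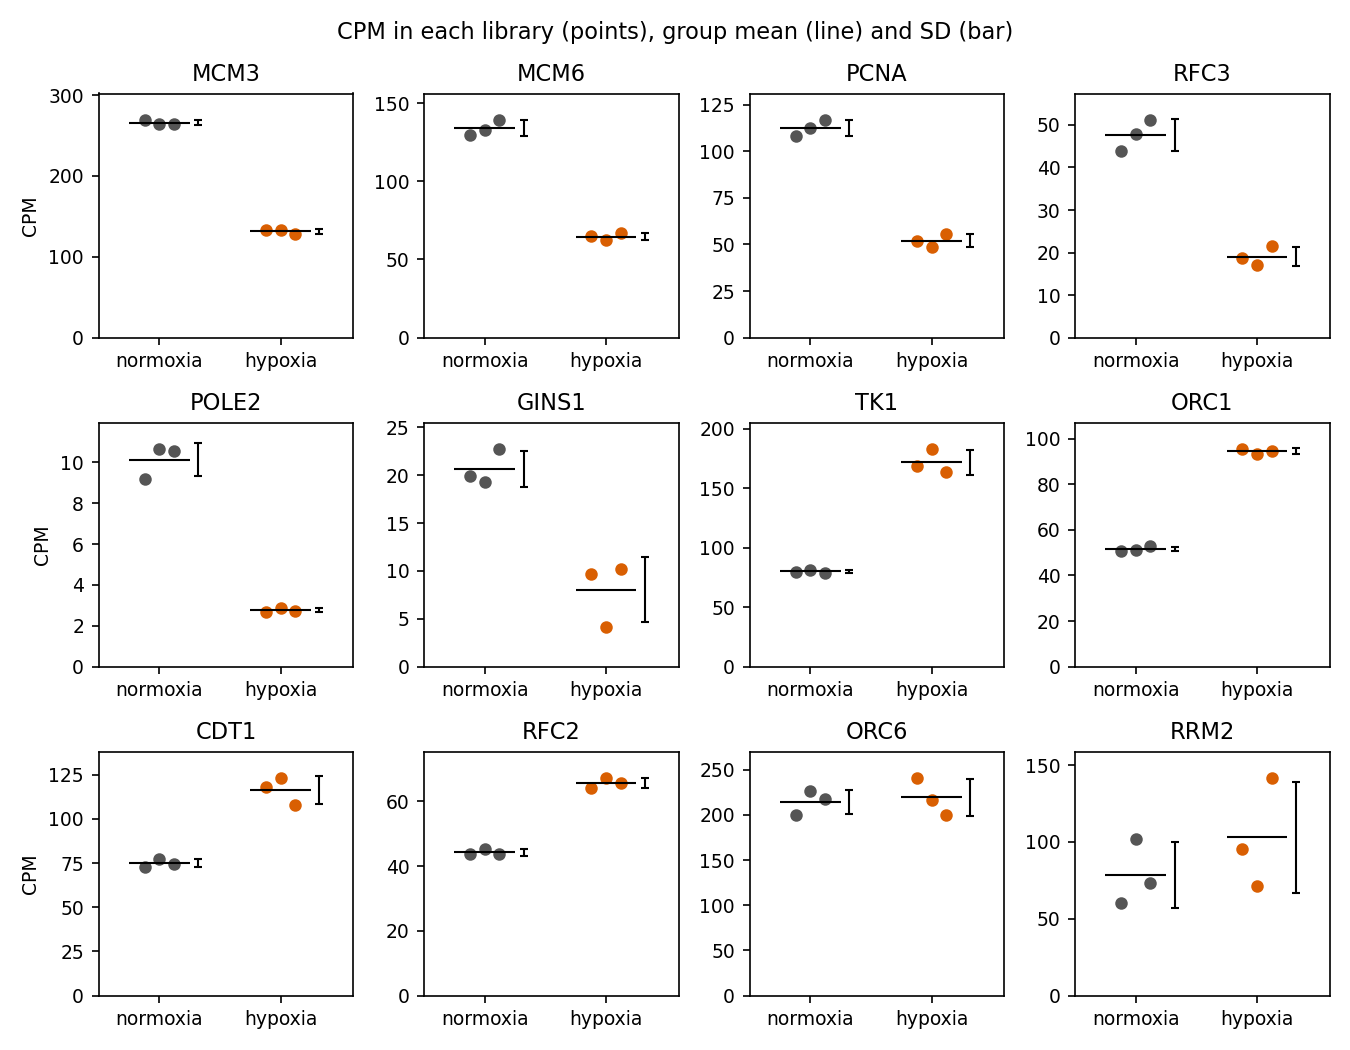
CPM (y axes, linear from 0, each panel with its own scale) of 12 genes in each library (points), with the group mean (line) and SD (bar), n = 3. MCM3, MCM6, PCNA, RFC3, POLE2 and GINS1 are lower in every hypoxia library, TK1, ORC1, CDT1 and RFC2 are higher in every one, and the libraries of ORC6 and RRM2 overlap.

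All 8 genes that turn the loaded ring into the active helicase fell, with a median log2 change of -0.65, the lowest of the 6 roles. GINS1 (ENSG00000101003.9, chr20:25407727-25452628, plus strand) measured 19.9, 19.3 and 22.8 CPM in normoxia and 9.71, 4.12 and 10.2 CPM in hypoxia. Library C5 was the lowest by a wide margin, and the groups did not overlap (log2 change -1.36, SE 0.25, edgeR adjusted p = 5.12e-04). Leaving out each library in turn gave log2 changes from -1.57 to -1.05, and each passed. GINS2 measured 32.2, 32.6 and 33.8 CPM in normoxia and 19.8, 20.4 and 20.5 CPM in hypoxia (log2 change -0.70, SE 0.056, edgeR adjusted p = 9.00e-07). GINS3 measured 18.9, 17.6 and 17.4 CPM in normoxia and 9.54, 11.1 and 11.4 CPM in hypoxia (log2 change -0.76, SE 0.087, edgeR adjusted p = 1.74e-05). GINS4 fell less, with 45.01 ± 0.964 CPM in normoxia and 37.4 ± 1.66 CPM in hypoxia (mean ± SD, n = 3; log2 change -0.27, SE 0.052, edgeR adjusted p = 8.18e-04). CDC45, which joins the ring together with GINS, measured 39.1, 37.5 and 37.5 CPM in normoxia and 25.8, 24.9 and 24.4 CPM in hypoxia (log2 change -0.61, SE 0.054, edgeR adjusted p = 2.04e-06).

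Both subunits of the kinase that activates the ring fell. DBF4, the regulatory subunit, measured 33.6, 33.2 and 36.9 CPM in normoxia and 20.7, 18.04 and 21.7 CPM in hypoxia (log2 change -0.78, SE 0.078, edgeR adjusted p = 5.92e-06). CDC7, the catalytic subunit, measured 41.5, 46.95 and 50.7 CPM in normoxia and 37.3, 34.03 and 37.5 CPM in hypoxia (log2 change -0.35, SE 0.075, edgeR adjusted p = 0.00150). Most DBF4 counts sat on transcripts annotated as targets of nonsense-mediated decay, and its protein-coding transcripts alone had a log2 change of 0.48 that did not pass (edgeR adjusted p = 0.248). MCM10, which helps the helicase to start and stays at the fork, measured 88.7, 91.2 and 89.97 CPM in normoxia and 68.6, 67.4 and 65.5 CPM in hypoxia (log2 change -0.42, SE 0.041, edgeR adjusted p = 4.73e-06). The groups were apart for each of these genes.

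The polymerases moved apart from one another, with 4 genes lower, 2 higher and 2 that did not pass (median log2 change -0.19). POLE2 (ENSG00000100479.12, chr14:49643555-49688422, minus strand), the second subunit of the leading strand polymerase epsilon, had the largest fall of the 42 genes. It measured 9.19, 10.7 and 10.6 CPM in normoxia and 2.69, 2.88 and 2.72 CPM in hypoxia, 3.66-fold lower (log2 change -1.87, SE 0.11, edgeR adjusted p = 9.37e-08), and was the least abundant of them per length in hypoxia. POLE, the catalytic subunit of the same enzyme, measured 128, 129 and 125 CPM in normoxia and 104, 104 and 104 CPM in hypoxia, only 1.22-fold lower (log2 change -0.29, SE 0.038, edgeR adjusted p = 5.17e-05). The primase subunits fell by like amounts. PRIM1, which makes the RNA primer, measured 14.96, 17.3 and 15.9 CPM in normoxia and 13.1, 10.6 and 13.8 CPM in hypoxia (log2 change -0.36, SE 0.11, edgeR adjusted p = 0.0103). PRIM2, its larger partner, measured 42.8, 44.8 and 50.6 CPM in normoxia and 35.2, 34.03 and 38.3 CPM in hypoxia (log2 change -0.36, SE 0.072, edgeR adjusted p = 0.00101). PRIM1 shares exon positions with NACA on the same strand, so counts between these genes depend on how reads were divided.

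The polymerase alpha subunits did not pass. POLA1, which extends the RNA primer with DNA, measured 90.7, 95.2 and 97.3 CPM in normoxia and 91.1, 85.1 and 91.4 CPM in hypoxia (log2 change -0.082, SE 0.047, edgeR adjusted p = 0.142). POLA2 measured 42.98, 41.5 and 41.3 CPM in normoxia and 39.97, 39.4 and 37.97 CPM in hypoxia (log2 change -0.10, SE 0.049, edgeR adjusted p = 0.0888). Both were called lower when library totals replaced TMM, at log2 changes of -0.23 and -0.25. In polymerase delta, which copies the lagging strand, the catalytic subunit POLD1 rose, with 67.7, 61.3 and 61.9 CPM in normoxia and 77.1, 83.2 and 71.4 CPM in hypoxia (log2 change 0.28, SE 0.063, edgeR adjusted p = 0.00225), a change that was -0.0046 in limma on the TPM scale (adjusted p = 0.958). Its accessory subunit POLD3 rose, with 85.6, 91.2 and 87.8 CPM in normoxia and 121, 117 and 123 CPM in hypoxia (log2 change 0.45, SE 0.043, edgeR adjusted p = 4.32e-06), a change that was 0.12 on the TPM scale and did not pass there (limma adjusted p = 0.178).

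The sliding clamp and most of its loader were lower. PCNA (ENSG00000132646.10, chr20:5114953-5126626, minus strand), the ring that holds polymerases on DNA, measured 108, 112 and 117 CPM in normoxia and 51.6, 48.6 and 55.7 CPM in hypoxia, 2.16-fold lower (log2 change -1.11, SE 0.057, edgeR adjusted p = 2.41e-08). The loader is made of RFC1 with 4 smaller subunits, and these did not move together. RFC3 (ENSG00000133119.12, chr13:33818049-33966558, plus strand) measured 43.8, 47.9 and 51.2 CPM in normoxia and 18.6, 17 and 21.5 CPM in hypoxia, 2.50-fold lower (log2 change -1.32, SE 0.089, edgeR adjusted p = 2.26e-07). RFC4 measured 41.2, 43.6 and 42.3 CPM in normoxia and 20.6, 22.9 and 24.6 CPM in hypoxia (log2 change -0.90, SE 0.068, edgeR adjusted p = 5.83e-07), where EIF4A2 overlaps it on the opposite strand. RFC1 measured 124, 132 and 128 CPM in normoxia and 92.5, 86.7 and 90.9 CPM in hypoxia (log2 change -0.50, SE 0.045, edgeR adjusted p = 2.15e-06). RFC5 measured 37.4, 39.6 and 39.1 CPM in normoxia and 33.2, 32.3 and 34.05 CPM in hypoxia (log2 change -0.22, SE 0.052, edgeR adjusted p = 0.00275). On its protein-coding transcripts alone, in a fit scaled anew, it did not pass (-0.075, edgeR adjusted p = 0.207). That fit also moved E2F1, with 100% of its counts on a coding transcript, from -0.49 to -0.37. RFC2 (ENSG00000049541.10, chr7:74231499-74254458, minus strand) went the other way, with 43.7, 45.4 and 43.7 CPM in normoxia and 63.99, 67.3 and 65.6 CPM in hypoxia, a rise of 1.48-fold (log2 change 0.57, SE 0.045, edgeR adjusted p = 8.91e-07). RFC2 was therefore the one risen gene of this group of 8 (6 fell, median log2 change -0.41).

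Of the enzymes that finish the lagging strand, FEN1, which removes primer flaps, measured 154, 146 and 137 CPM in normoxia and 113, 117 and 122 CPM in hypoxia (log2 change -0.31, SE 0.052, edgeR adjusted p = 2.99e-04). FEN1 shares exon positions with FADS2 on the same strand. LIG1, the ligase that seals the fragments, measured 80.2, 83.9 and 77.3 CPM in normoxia and 83.1, 81.3 and 77.3 CPM in hypoxia, with groups that overlapped (log2 change 0.0017, SE 0.048, edgeR adjusted p = 0.977). The LIG1 value was near 0 and its sign changed with the setting.

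Nucleotide supply was the only role of the 42 genes with a positive median (log2 change 0.28, 4 genes: 2 rose, 1 fell and 1 did not pass). The 6 nucleotide supply genes outside the 42 had a median of -0.55, with 4 fallen and 2 risen. TK1 (ENSG00000167900.11, chr17:78174075-78187233, minus strand), which salvages thymidine, measured 79.96, 81.6 and 79.1 CPM in normoxia and 169, 183 and 163 CPM in hypoxia, a rise of 2.14-fold (log2 change 1.10, SE 0.050, edgeR adjusted p = 9.94e-09), the largest of the 42 genes. Its main transcript TK1-201 held 94.97% to 97.7% of its counts in every library. TYMS, which makes thymidylate anew, measured 177, 178 and 177 CPM in normoxia and 203, 199 and 199 CPM in hypoxia (log2 change 0.18, SE 0.036, edgeR adjusted p = 0.00113); this small rise was 0.026 with library totals (edgeR adjusted p = 0.563) and -0.16 in limma on the TPM scale (adjusted p = 0.0273), and ENOSF1 overlaps it on the opposite strand. RRM1, the large subunit of ribonucleotide reductase, measured 134, 138 and 139 CPM in normoxia and 96.2, 92.8 and 101 CPM in hypoxia and fell (log2 change -0.51, SE 0.044, edgeR adjusted p = 1.88e-06). RRM2, the small subunit, measured 60.1, 102 and 73.2 CPM in normoxia and 95.6, 71.3 and 142 CPM in hypoxia. Its libraries spread widely in both groups and the difference did not pass (log2 change 0.39, SE 0.23, edgeR adjusted p = 0.154). Without normoxia C2 the log2 change was 0.61 (adjusted p = 0.0372) and without hypoxia C5 it was 0.60 (adjusted p = 0.0264), so leaving out either library turned the call. Most of the spread lay in the transcript RRM2-201, at 27.2, 67.8 and 40.1 CPM in normoxia and 51.8, 31.2 and 96.7 CPM in hypoxia. RRM2 shares exon positions with AC007240.1 on the same strand, so its counts depend on how reads were divided. POLA2 and POLD1 likewise share exon positions with another protein-coding gene on the same strand.

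Among the regulators the E cyclins, which activate CDK2 at S phase entry, moved in opposite directions. CCNE1 measured 15.9, 16.1 and 17.6 CPM in normoxia and 9.12, 8.85 and 8.08 CPM in hypoxia, 1.90-fold lower (log2 change -0.93, SE 0.085, edgeR adjusted p = 2.82e-06). CCNE2 measured 13.5, 14.8 and 16.3 CPM in normoxia and 20.2, 17.03 and 20.9 CPM in hypoxia and rose 1.30-fold (log2 change 0.38, SE 0.099, edgeR adjusted p = 0.00527), a change that did not pass with library totals (0.23, edgeR adjusted p = 0.0646) or on the TPM scale (0.083, limma adjusted p = 0.566). E2F1, an activator of this whole gene program, measured 45.6, 45.1 and 44.8 CPM in normoxia and 31.7, 33.9 and 31.1 CPM in hypoxia and fell (log2 change -0.49, SE 0.052, edgeR adjusted p = 8.92e-06). E2F8, an E2F that represses, measured 11.8, 12.9 and 11.9 CPM in normoxia and 11.2, 10.5 and 9.43 CPM in hypoxia and was the weakest call of the 42 (log2 change -0.23, SE 0.091, edgeR adjusted p = 0.0383). The E2F8 call was lost in DESeq2 (adjusted p = 0.0748) and without C2, C3, C5 or C6. It was also lost with a filter of mean CPM 1, on protein-coding transcripts and in limma on each FPKM scale.

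**Figure D3:**
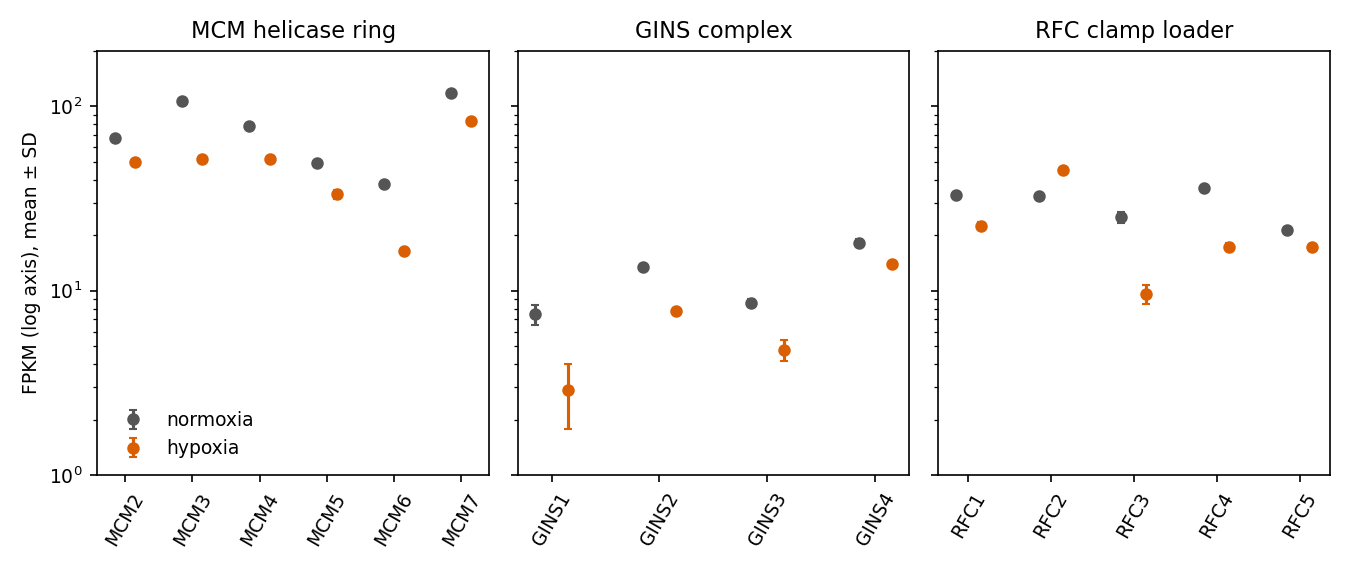
FPKM (log axis, mean ± SD, n = 3) of the subunits of the MCM ring, the GINS complex and the RFC clamp loader in normoxia and hypoxia. Subunits of a complex lie further apart in hypoxia, and RFC2 is the one subunit above its normoxia level.

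The span between subunits of one complex moved by different amounts. On FPKM, a level per transcript length, the highest RFC subunit stood 1.70 times the lowest in normoxia (RFC4 at 36.2 and RFC5 at 21.3 FPKM) and 4.68 times in hypoxia (RFC2 at 44.9 and RFC3 at 9.61 FPKM). The same span was 3.11 and 5.06 times for MCM2 to MCM7, from MCM6 to MCM7 in both conditions. For GINS it was 2.45 and 4.84 times, from GINS1 to GINS4. Between POLE2 and POLE it was 3.24 and 8.76 times, and between RRM1 and RRM2 1.07 and 1.87 times. Smaller shifts were measured for polymerase alpha with primase (1.88 and 2.18 times), POLD1 with POLD3 (1.53 and 1.67 times) and CDC7 with DBF4 (1.07 and 1.15 times). The span between the ORC subunits ORC1 and ORC6 went the other way, from 7.25 to 4.01 times, as did that between PRIM1 and PRIM2, the primase alone, from 1.88 to 1.77 times. Most ORC6 counts sat on the retained-intron transcript ORC6-207, and its protein-coding transcripts held a mean of 11.8% in normoxia and 6.11% in hypoxia. The ORC span on protein-coding transcripts alone was not computed. Some complexes have further subunits outside the 42 that these spans do not include, and the spans were not tested.

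Ratios of CPM within a library do not depend on the scaling between libraries. The pairs given here were chosen after their values were seen, so no test is attached. The ratio of RFC2 to RFC3 was 0.997, 0.948 and 0.853 in normoxia and 3.43, 3.96 and 3.05 in hypoxia. POLE2 to POLE was 0.0720, 0.0827 and 0.0846 in normoxia and 0.0259, 0.0277 and 0.0261 in hypoxia. CCNE2 to CCNE1 was 0.851, 0.921 and 0.928 in normoxia and 2.21, 1.92 and 2.59 in hypoxia, so the more counted E cyclin differed between the groups. CDT1 to geminin (GMNN, its inhibitor, log2 change -0.53) was 1.43, 1.49 and 1.39 in normoxia and 3.41, 3.43 and 2.85 in hypoxia. TK1 to TYMS averaged 0.453 and 0.857, and MCM6 to MCM7 0.499 and 0.311. Each of these 6 ratios had groups that did not overlap.

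Per transcript length, TYMS (129 FPKM in normoxia and 129 FPKM in hypoxia) stood at place 1 of the 42 in both conditions and ORC6 (127 FPKM in normoxia and 115 FPKM in hypoxia) at place 2. In normoxia MCM7 (118 FPKM in normoxia and 82.9 FPKM in hypoxia), MCM3 (106 FPKM in normoxia and 51.6 FPKM in hypoxia) and PCNA (92.6 FPKM in normoxia and 38.5 FPKM in hypoxia) followed. PCNA, at place 5 in normoxia, was at place 13 in hypoxia, while TK1 moved from place 9 to place 3 (59.03 FPKM in normoxia and 114 FPKM in hypoxia). ORC1 moved from place 33 to place 18 (17.5 FPKM in normoxia and 28.7 FPKM in hypoxia) and MCM6 from place 14 to place 28 (37.8 FPKM in normoxia and 16.4 FPKM in hypoxia). The least abundant were E2F8 in normoxia (3.52 FPKM in normoxia and 3.01 FPKM in hypoxia) and POLE2 in hypoxia (7.76 FPKM in normoxia and 2.13 FPKM in hypoxia). Neighbouring places were often closer than the spread between libraries, as for TYMS (SD 3.33 FPKM) and ORC6 (SD 7.32 FPKM) in normoxia.

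For most of the genes nearly all counts sat on protein-coding transcripts. In normoxia that share was at least 90% for 29 of the 42, with a median of 95.8%, and the median was 95.3% in hypoxia. In hypoxia the share was lower without overlap for 8 genes (ORC6, MCM5, MCM10, PRIM1, RFC1, RFC2, LIG1 and E2F8) and higher for 4 (CDC6, DBF4, POLD3 and RFC5). Of all genes with such a share, 19.1% were lower and 6.32% higher in this way, so the lower count was at the background. The division of reads among transcripts of a gene is an estimate, and intron reads in RNA depleted of ribosomal RNA also count toward retained-intron transcripts.

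A few genes had values that turned on this make-up. ORC6 had only 11.5%, 10.5% and 13.3% in normoxia and 5.13%, 6.31% and 6.88% in hypoxia on protein-coding transcripts, most of the rest being the retained-intron transcript ORC6-207 (181 CPM in normoxia and 201 CPM in hypoxia). Counted on protein-coding transcripts alone, ORC6 fell (log2 change -0.81, edgeR adjusted p = 4.37e-05). LIG1 had 68.1%, 70% and 65.4% in normoxia and 49.1%, 56.2% and 51.5% in hypoxia, and its coding transcripts alone also fell (-0.26, edgeR adjusted p = 0.0106), while LIG1-207, annotated for nonsense-mediated decay, went from 6.86 to 14.2 CPM. DBF4 had 3.67%, 5.27% and 4.92% in normoxia and 9.86%, 5.96% and 14.2% in hypoxia, the rest lying mostly on the nonsense-mediated decay transcripts DBF4-202 (14.2 and 8.48 CPM) and DBF4-204 (15.8 and 6.60 CPM). All transcripts annotated for decay together held 84.5% to 89.98% of DBF4 counts in normoxia and 72.1% to 76.3% in hypoxia. MCM5 had 82.4%, 81.8% and 84.01% in normoxia and 72.8%, 75.5% and 76.2% in hypoxia, with the retained-intron transcript MCM5-209 at 25.7 and 28.3 CPM beside a main coding transcript at 100.1 and 70.3 CPM.

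**Figure D4:**
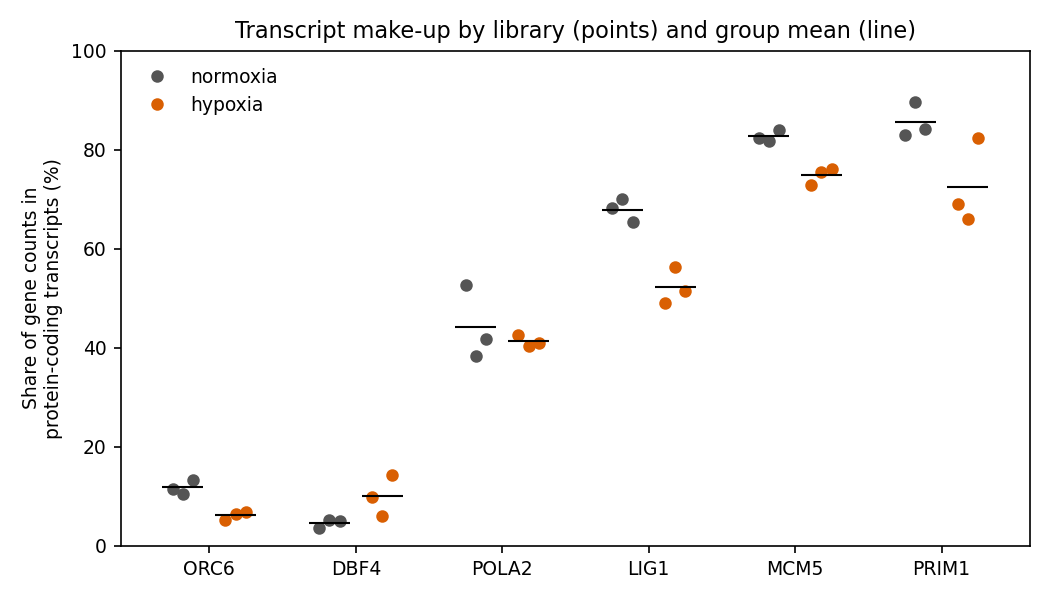
Share of a gene's counts on protein-coding transcripts (y axis, %) in each library (points) with the group mean (line) for 6 genes. ORC6 and DBF4 lie under 15% in every library, LIG1 goes from a mean of 67.8% to 52.3%, and POLA2 overlaps between groups.

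Replication genes outside the 42, listed by role with earlier results of these data known, showed a like balance. Of 73 such genes, 46 fell (63.0%) and 17 rose (23.3%), against 36.3% and 36.5% of all genes tested. The other 10 were not called, and the median log2 change was -0.35. At least 2-fold, 12 fell and 5 rose, against 11.4% and 17.5% of all genes tested. By role, the fallen and risen counts were 4 and 2 of 8 origin and licensing genes, 9 and 1 of 11 firing and fork genes, 9 and 5 of 16 polymerase and loader genes, 6 and 0 of 8 chromatin assembly genes, 4 and 2 of 6 nucleotide supply genes, and 14 and 7 of 24 E2F, RB and checkpoint genes. The largest falls were ASF1A, a histone chaperone at the fork, with 25.4 ± 1.499 CPM in normoxia and 4.69 ± 0.661 CPM in hypoxia (log2 change -2.44, SE 0.10, edgeR adjusted p = 6.00e-09), DSCC1, part of an alternative clamp loader (-1.90), and CDC25A, a phosphatase that activates cyclin-dependent kinases (-1.84). The largest rises were POLD4, the smallest subunit of polymerase delta, with 8.43 ± 0.678 CPM in normoxia and 31.9 ± 1.91 CPM in hypoxia (log2 change 1.92, SE 0.082, edgeR adjusted p = 5.96e-09), E2F7, a repressing E2F (1.51), and TICRR, a factor for origin firing (1.28). Chosen after their values were seen, the retinoblastoma gene RB1 rose, with 49.9 ± 5.86 CPM in normoxia and 114 ± 12.6 CPM in hypoxia (log2 change 1.19, SE 0.093, edgeR adjusted p = 7.09e-07) and the activator E2F2 fell, with 37.6 ± 0.773 CPM in normoxia and 12.3 ± 0.709 CPM in hypoxia (log2 change -1.62, SE 0.065, edgeR adjusted p = 3.76e-09), SD over n = 3 libraries throughout.

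Of the neighbouring programs of the dividing cell, mitosis and histone genes fell as a larger share than the 42 genes and by more at the median. Recombination and mismatch repair genes lay close to the 42, with 68.6% against 66.7% fallen. Among all genes tested, 36.3% fell and 36.5% rose. Of 42 mitosis genes 36 fell and 2 rose (median log2 change -0.76), led by CDC20 (-2.05) and ASPM (-1.88). Of 52 tested replication-dependent histone genes, whose mRNAs are made during S phase, 47 fell and 2 rose (-0.93), led by H2AC16 (-2.54) and H1-5 (-2.42). Of 35 recombination and mismatch repair genes 24 fell and 4 rose (-0.44), led by MRE11 (-1.44) and FANCE (-1.31). The differences between these lists and the 42 genes were not tested.

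**Figure D5:**
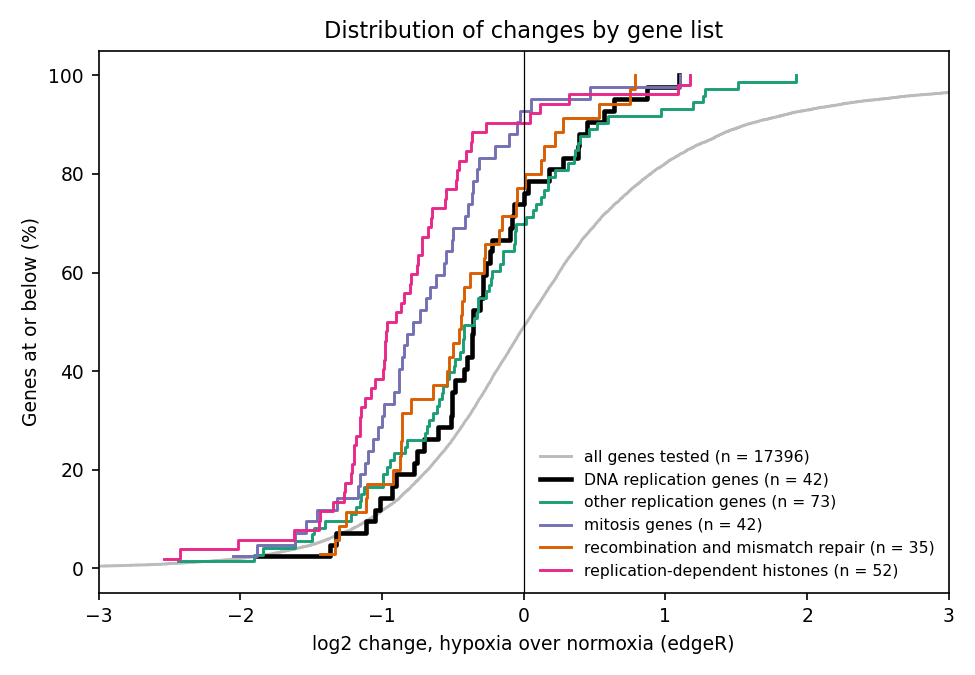
Cumulative share (y axis, %) of genes at or below a log2 change (x axis, hypoxia over normoxia, edgeR) for the 42 genes, 4 other lists and all 17396 genes tested. The line of the 42 genes lies near that of the 73 other replication genes and of the repair genes, and to the right of those of mitosis genes and histones over most of its height.

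Base composition is given as a description. Across the 42 genes, the GC content of the most abundant transcript and the log2 change gave Pearson's r = 0.367 and Spearman's rho = 0.302, against a rho of 0.194 over 13140 protein-coding genes tested. Genes share the same 6 libraries and are not independent replicates, so no p is given. The median GC content was 47.2% for the 28 fallen and 52.2% for the 8 risen genes. Over all genes tested it was nearly the same, 47.6% for fallen and 52.3% for risen genes. The transcript was picked by mean FPKM and was short for some genes, as for POLA2 (580 bases) and RRM2 (573 bases). The part of GC content in the changes was not tested.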

How the data were processed

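Transcript rows were deposited with expected counts for each of 6 libraries (3 normoxia, 3 hypoxia) and a transcript length. The deposited expected counts are reads divided among transcripts and were not normalized by the authors; the deposited FPKM columns were not used. Cutadapt, HISAT2, RSEM and GRCh38 are named in the submitters' processing notes. The sources used here do not give versions, the annotation release or the strand setting of the counting, although the labels' protocols describe strand-specific paired-end libraries depleted of ribosomal RNA.

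Expected counts of 202907 of 251062 rows were summed over the transcripts of 58478 genes (GENCODE 29) and rounded. The other 48155 rows, with 6.12% to 6.39% of counts, matched no gene there and stayed out of library sizes and tests. FPKM was computed from the expected counts, full transcript lengths and counts in genes, then summed per gene, and TPM from FPKM. Genes kept by filterByExpr were scaled by TMM and tested with edgeR 4.0.16 (limma 3.58.1, R 4.3.3), two-sided, adjusted over 17396 genes at 0.05. CPM are counts scaled to TMM-adjusted library size, and SE is the log2 change over the square root of F. The procedure was tested on simulated data, where 83.6% of 67 genes changed 1.5-fold were recovered and 18 of 16861 unchanged genes were called. Only well counted genes were changed there, and far fewer than were called in these data. The simulation therefore does not cover scaling when most genes change. Chi-square over degrees of freedom between libraries of a group was 4.63 to 11.2, so all 6 were kept as separate.

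Other settings tried were DESeq2 1.42.0, RLE factors, library totals, no low-count filter, a filter of mean CPM 1, limma on log2(FPKM + 0.1, 0.5 or 1) and log2(TPM + 0.5), the most abundant transcript, protein-coding transcripts, and leaving out each library. The most abundant transcript was picked by mean FPKM over all libraries. Members and lists were chosen with earlier results of these data known. All members are named. Other replication genes are named by the 3 largest changes each way, and neighbouring programs by the 2 largest, among called genes whose groups did not overlap and whose mean FPKM reached 1 in either group. Promoters come from RefSeq.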

Additional observations from a re-analysis of the deposited data

How the results depend on the processing

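Of the 42 genes, 29 kept direction and call in all 17 alternatives, among them 25 of the 28 that fell and 4 of the 8 that rose (ORC1, CDT1, RFC2 and TK1). The median log2 change of the 42 (-0.36) was -0.33 with the filter of mean CPM 1, -0.51 with library totals, -0.39 without a low-count filter, -0.26 on protein-coding transcripts, -0.45, -0.44 and -0.43 in limma on log2(FPKM + 0.1, 0.5 and 1), and -0.61 on log2(TPM + 0.5). Leaving out 1 library gave -0.41 (without C1) to -0.31 (without C5). The median of all genes tested moved too, from 0.025 to -0.13 with library totals, -0.22 on TPM, -0.099 on log2(FPKM + 0.1) and 0.13 without the filter. The number of the 42 that rose was 5 with library totals, 5 on log2(FPKM + 1) and 4 on TPM, and 3 fell at least 2-fold on protein-coding transcripts. In that last fit MCM6 moved from -1.05 to -0.94 and MCM3 from -1.02 to -0.90. Coding transcripts held a mean of 99.9% of MCM6 counts and 98.8% of MCM3 counts in normoxia. Over all genes 4126 rose on TPM, and of the 73 other replication genes 7 rose. Signs reversed on TPM for POLD1 (-0.0046) and TYMS (-0.16). On protein-coding transcripts they reversed for CDC6 (0.056), DBF4 (0.48), POLA1 (0.034), LIG1 (-0.26) and ORC6 (-0.81), and on the most abundant transcript for POLA2 (0.23) and LIG1 (-0.23). Coding transcripts held a mean of 98.7% of CDC6 counts in normoxia and 99.2% in hypoxia, and 98.1% of POLA1 counts in both. The protein-coding fit, scaled anew, also moved E2F1, with 100% of its counts on a coding transcript, from -0.49 to -0.37. LIG1 was also -0.15 with library totals, -0.026 without a filter, -0.015 on each FPKM scale, -0.18 on TPM and -0.034 to 0.035 with 1 library left out. ORC6 was -0.12 with library totals, -0.14 on each FPKM scale, -0.30 on TPM and -0.042 to 0.099 with 1 library left out. The cause of these changes was not tested. No paired analysis was possible because the table's columns carry no replicate numbers that match the labels. POLA2 (-0.10) and CDC6 (-0.067) did not pass with 3 libraries a group, although their groups did not overlap, and both were called lower with library totals. CDC6 was also called lower on TPM and on each FPKM scale.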
